A study of Arabidopsis thaliana with 11 samples.

Results

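The binding of HY5-SRDX to the genome of Arabidopsis thaliana seedlings was described from 2 libraries, the only ones of this fusion among 11 samples. HY5-SRDX is the light-signalling transcription factor HY5 joined to the SRDX repression domain. The members were taken by their labels, as replicates 1 and 2 of HY5-SRDX in set 1. Replicate 1 had 20509 peaks and replicate 2 had 12672, of 89193 peaks deposited for the 8 libraries with a tagged HY5. A peak was called shared when it overlapped a peak of the other HY5-SRDX library by at least 1 bp, and a gene was called listed when the authors' gene list of that library held it.

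The fusion was expressed from the viral 35S promoter with the FLASH2 tag, which combines StrepII, His and Flag epitopes, and was recovered with a Flag antibody. All samples were whole seedlings of ecotype Columbia kept for 3 days in darkness at 21 °C and then given 2.5 h of simulated white light at 100 µmol m-2 s-1. The control of set 1 was Columbia (Col-0) without a tagged protein, put through the same dark and light treatment, and it served both HY5-SRDX libraries. The other tagged libraries were 3 of HY5ox, the fusion without an added domain, and 3 of HY5-VP16, which carries an activation domain. The other 2 controls belonged to sets 2 and 3, and that of set 2 is named for the hy5 mutant. Whether the tagged lines kept an intact HY5 gene is not stated in those labels. A 35S promoter drives expression in most cells rather than where the HY5 gene is active. Nothing in the labels says that the libraries came from separate lines or cultures, so any p-value measures the spread between libraries, which may be technical.

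HY5 is a basic leucine zipper (bZIP) protein that binds G-box and related elements and promotes seedling development in light. In darkness the COP1 and SPA ubiquitin ligase complex marks it for degradation, and light stops this. SRDX is a short EAR-type motif that recruits TOPLESS-family corepressors and their histone deacetylases, so that a fusion is meant to repress the genes it binds. The files hold binding only, and no expression of the bound genes.

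Replicate 1 held 16.1 M tags and replicate 2 held 20.4 M tags. The shallower library gave the longer peak list but the weaker peaks by tag count, and its peaks were narrower (167 against 209 bp). Tags per peak ran from 29 to 168 with a median of 49 in replicate 1, and from 45 to 844 with a median of 92 in replicate 2. After the authors' scaling to 10 M tags the median peak had a normalised tag count of 30.4 in replicate 1 and 45.2 in replicate 2, and the strongest peak had 104.2 and 414.4. Peaks covered 2.86% and 2.21% of the genome and held 6.63% and 6.67% of the tags. Replicate 1 also stood apart from all other tagged libraries in the position of its peaks, so values that rest on it are given with and without it. Each sequenced tag may be a copy made by PCR, and all confidence intervals here (95%) cover counting error only.

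The untagged control removed most candidate regions of both libraries. Of 54969 candidate peaks in replicate 1 the comparison with the control removed 33073 (60.2%), and of 31966 in replicate 2 it removed 16954 (53.0%). Among the peaks kept, the median of control tags, scaled by the authors to the depth of the immunoprecipitated library, was 10.3 in replicate 1 and 15.7 in replicate 2. The median fold over the control was 4.77 (quartiles 3.66 and 7.27) and 5.96 (quartiles 4.07 and 10.3), where the authors had required at least 3-fold. The lowest scaled control value was 0.367 and 0.463, each equal to 0.5 of the next value, and was read as 0 control tags. The value of 1 control tag gave the same control depth, 21.99 M tags, in both libraries. Peaks without a control tag numbered 425 (2.07%) in replicate 1 and 202 (1.59%) in replicate 2. For these a fold is given as a lower bound against 3 control tags.

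Both libraries marked 3591 places together. Of the peaks of replicate 1, 3591 (17.5%, Wilson interval 16.995% to 18.04%) overlapped a peak of replicate 2, and of the peaks of replicate 2, 3590 (28.3%, 27.6% to 29.1%) overlapped a peak of replicate 1. The same peaks make up the merged list that the authors deposited for this fusion, with 3590 regions. Both libraries were read against the same control library, so their peak calls are not independent of each other.

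Strong peaks were shared far more often than weak ones. In replicate 1 the strongest 10% of peaks were shared in 46.9% of cases, the next 10% in 22.4%, and the weakest 10% in 10.6%. In replicate 2 these shares were 66.8%, 48.8% and 11.4%. Of the strongest 100 peaks, 91 of replicate 1 and 75 of replicate 2 were shared, and 42 pairs lay among the strongest 100 of both. Of the strongest 1000 peaks, 60.0% and 68.2% were shared. The share also rose with the fold over the control. It was 9.48% for the 7091 peaks of replicate 1 with a fold of 3 to 4 and 36.4% for its 1293 peaks above 20, and in replicate 2 it was 13.01% for 2989 peaks and 47.9% for 1267 peaks. These folds are as deposited, and the peaks above 20 include the 425 and 202 peaks without a control tag, whose folds are only lower bounds elsewhere here.

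**Figure D1:**
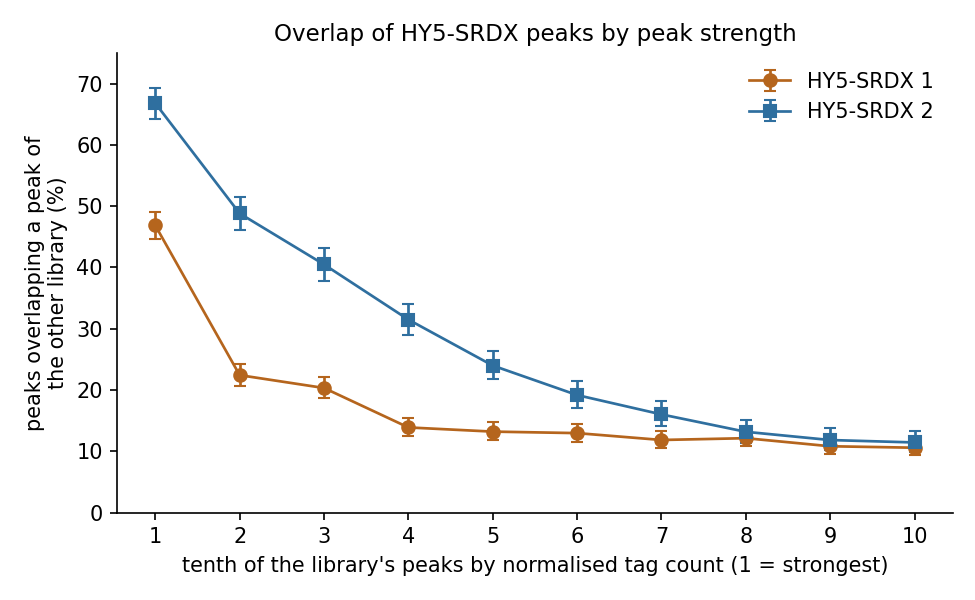
Percent of peaks that overlap a peak of the other HY5-SRDX library by at least 1 bp (y axis) in 10 slices of each library ordered by normalised tag count (x axis, 1 is the strongest). Points are shares and bars are 95% Wilson intervals. Sharing falls from 46.9% to 10.6% in replicate 1 and from 66.8% to 11.4% in replicate 2, and the fall is steepest between the first and second slice of replicate 1.

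Within shared peaks, replicate 2 gave the higher values. The median normalised tag count was 34.1 (quartiles 29.1 and 42.2) in replicate 1 and 60.4 (quartiles 44.7 and 81.0) in replicate 2, and the value was higher in replicate 2 in 3380 of 3591 pairs (94.1%). The median ratio of replicate 2 to replicate 1 was 1.74. Peaks were 167 bp wide in replicate 1 and 209 bp in replicate 2, and these counts were not adjusted for width. The median fold over the control was 6.51 in replicate 1 and 8.65 in replicate 2, against 4.51 and 5.23 in the unshared peaks of the same libraries. Control tags were slightly fewer under shared than under unshared peaks, with medians of 8.80 and 11 in replicate 1 and of 14.8 and 16.7 in replicate 2. Both peaks of a pair had at least 5-fold over the control in 2118 pairs (59.0%). The centres of a pair lay a median of 58 bp apart.

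**Figure D2:**
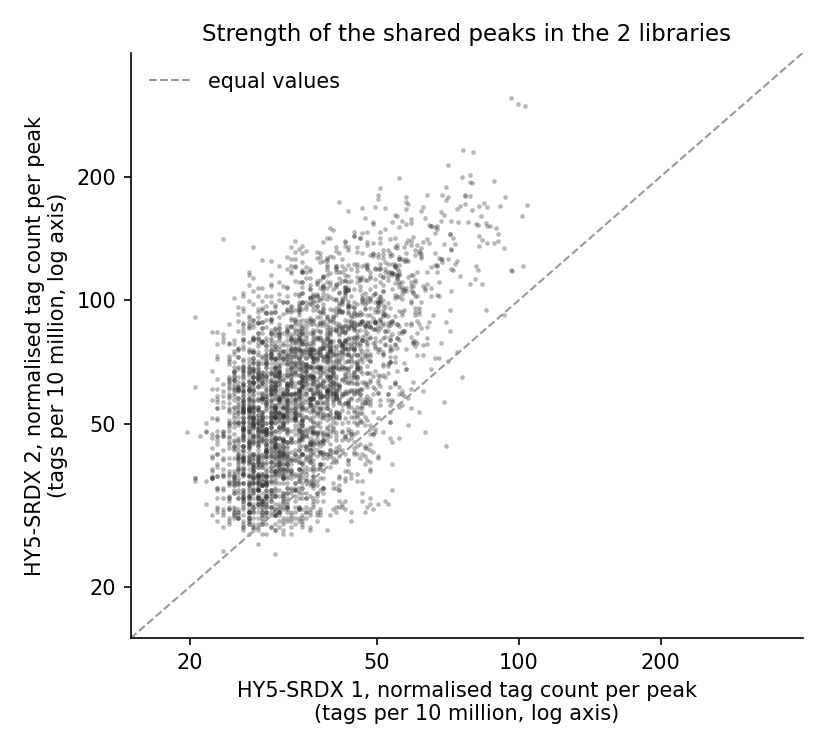
Normalised tag count of each shared pair in replicate 1 (x axis) and replicate 2 (y axis), in tags per 10 M on log axes. Each point is 1 of 3591 pairs and the dashed line marks equal values. Most points (94.1%) lie above the line, and replicate 1 reaches 104.2 where replicate 2 reaches 310.8. Counts are not adjusted for peak width, 167 bp in replicate 1 and 209 bp in replicate 2.

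Most of the strongest shared peaks lay upstream of genes. Peaks were ordered by percentile rank, the rank as a share of its library's peaks, averaged over both libraries. The first was at ACR8 (AT1G12420), which encodes a protein with repeated ACT domains. It spanned chr1:4229774-4229940 in replicate 1 (TAIR10) and its centre lay upstream of the start site, at -719 bp. It held 161 tags in replicate 1 and 613 tags in replicate 2, against 12.5 and 15.7 scaled control tags, and ranked 5 and 4 in the libraries. The peak at GBF3 (AT2G46270, chr2:18999306-18999472, at -803 bp), which encodes another bZIP protein that binds the G-box, ranked 2 and 6. It held 166 and 606 tags against 13.2 and 20.4 control tags, which is 12.6-fold and 29.7-fold. These peaks were therefore near the top in each library while the control also had tags there.

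A peak on chromosome 4 (chr4:12317660-12317826) ranked 7 and 3. The authors assigned it to the promoter of AT4G23620 and to the body of BTI1 (AT4G23630), a reticulon-like membrane protein, and it reached 8.80-fold and 28.6-fold over the control. The peak at -846 bp from the start of AT5G66820 ranked 17 and 18, with 39.0-fold and 43.4-fold. At GI (GIGANTEA, AT1G22770), a clock and flowering-time gene, the peak chr1:8060789-8060955 lay at -973 bp. It ranked 39 and 10, with 129 and 467 tags against 2.90 and 15.7 control tags. A peak that the authors assigned to no gene (chr3:5125367-5125533) ranked 10 and 34. It held 151 tags in replicate 1 with no control tag, at least 68.6-fold, and 363 tags in replicate 2 with 1 control tag.

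The remaining peaks among the 10 strongest shared ones were in promoters. The peak between CPC (AT2G46410), an R3-type MYB protein that promotes root-hair fate, and AT2G46420 ranked 51 and 9, with 10.5-fold and 31.98-fold. The peak between AT1G78060 and AT1G78070 ranked 43 and 14, with 43.3-fold and 111-fold. The peak at -524 bp from TPR2 (TOPLESS-RELATED 2, AT3G16830), a corepressor of the family that SRDX-type motifs recruit, spanned chr3:5730928-5731094 and ranked 40 and 20. It held 128 tags in replicate 1 against 3 control tags, 58.2-fold with an exact interval of 19.5 to 286, and in replicate 2 it reached 53.3-fold.

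HY5 itself (AT5G11260) was the last of these 10. Its promoter peak spanned chr5:3594960-3595126 in replicate 1 and chr5:3594968-3595176 in replicate 2, with the centre at -51 and -80 bp from the start site, and ranked 42 and 19. It held 127 and 395 tags, but also 23.5 and 37.1 control tags, so that its fold was only 5.41 and 10.7. Each library had a second HY5 peak in the gene body. In replicate 1 it lay 642 bp downstream of the start site (rank 65, 116 tags, 7.19-fold) and in replicate 2 at 855 bp (rank 132, 288 tags, 9.42-fold), and these peaks did not overlap. The transgene carries HY5 coding sequence, so tags from the transgene and from the exons of the resident gene cannot be told apart.

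Shared peaks lay close to and mostly upstream of start sites. In replicate 1, 72.9% of shared peaks (71.5% to 74.4%) were assigned to a promoter, here up to 2000 bp upstream, against 46.7% (45.9% to 47.4%) of its unshared peaks. In replicate 2 the same shares were 74.0% (72.5% to 75.4%) and 69.8% (68.8% to 70.7%). Peaks assigned only to a gene body made up 10.9% of the shared and 34.4% of the unshared peaks of replicate 1, and 10.3% and 18.3% in replicate 2. Peaks assigned to no gene made up 16.2% and 18.9% in replicate 1 and 15.7% and 11.97% in replicate 2.

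The distance to the nearest assigned start site told the libraries apart in the same way. Its median was 442 bp for shared and 998 bp for unshared peaks of replicate 1, but 429 bp and 417 bp in replicate 2. Within 500 bp of a start site lay 53.3% of the shared and 26.7% of the unshared assigned peaks of replicate 1, and 53.2% and 54.0% of those of replicate 2. Of the assigned peaks, 77.0% of the shared and 40.8% of the unshared ones in replicate 1 had their centre upstream, and 76.9% and 62.7% in replicate 2. Promoters of genes on opposite strands at once held 18.6% of the shared and 7.47% of the unshared peaks of replicate 1. These shares were 18.7% and 18.6% in replicate 2. The unshared peaks of replicate 2 thus differed little from shared ones in distance, and those of replicate 1 lay farther from start sites in the median.

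**Figure D3:**
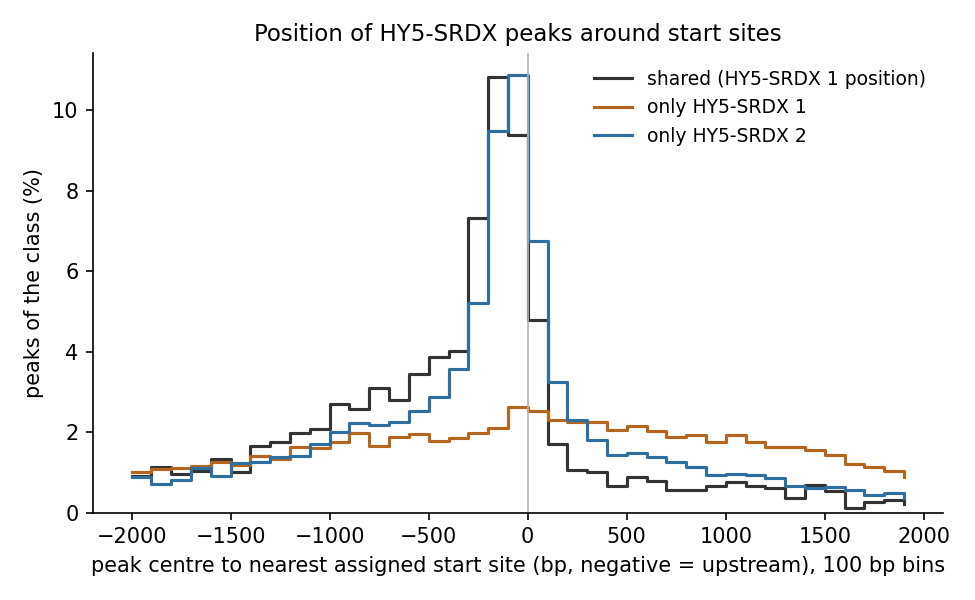
Distance from the peak centre to the nearest assigned start site in bp (x axis, negative is upstream, bins of 100 bp) and percent of all peaks of the class (y axis) for shared peaks at their replicate 1 position, peaks only in replicate 1 and peaks only in replicate 2. Shared peaks and those only in replicate 2 pile up just upstream of the start site, with medians of 442 and 417 bp, while peaks only in replicate 1 form a low, flat curve with a median of 998 bp.

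The position of HY5-SRDX peaks was compared with that of the other constructs in the strongest 2000 peaks of each library. This sets aside the length of the lists but not the width of the peaks. Peaks were 167 and 209 bp wide in HY5-SRDX, 273 to 301 bp in HY5ox and 191 to 257 bp in HY5-VP16. Peaks assigned to a promoter and a gene body were counted as promoter peaks. The promoter share was 61.0% in replicate 1 and 76.2% in replicate 2, with a mean of 68.6% ± 10.7 (SD, n = 2). It was 82.3% ± 1.34 in HY5ox (n = 3) and 80.1% ± 0.661 in HY5-VP16 (n = 3). The groups did not overlap, and the differences were -13.7 and -11.5 percentage points (two-sided exact permutation p = 0.1 each, the smallest that 2 against 3 libraries allow, adjusted p = 0.15 over 6 tests by Benjamini-Hochberg). Without replicate 1 they were -6.08 and -3.90 points, and without replicate 2 they were -21.2 and -19.1. Over all peaks they were -19.3 (p = 0.1) and -15.0 (p = 0.2, exact permutation), and the HY5-SRDX and HY5-VP16 groups then overlapped, at 71.0% in HY5-SRDX replicate 2 and 70.8% in HY5-VP16 replicate 2. Within set 1, among the strongest 2000 peaks, HY5ox replicate 1 had 83.4% and HY5-VP16 replicates 1 and 2 had 80.8% and 79.6%. Peaks assigned only to a promoter, over all peaks, made up 28.3% and 41.8% in HY5-SRDX replicates 1 and 2. These shares were 33.2% to 37.8% in HY5ox and 37.6% to 42.1% in HY5-VP16. Whether peak width accounts for the differences in position was not tested.

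Gene body peaks gave no such separation in the strongest 2000. They made up 21.2% and 8.35% of the strongest 2000 peaks of replicates 1 and 2, against 10.4% ± 1.85 in HY5ox (n = 3) and 9.55% ± 2.44 in HY5-VP16 (n = 3). The differences of 4.43 and 5.25 points were within the spread between the HY5-SRDX libraries (exact permutation p = 0.5 each, adjusted p = 0.5). They turned to -2.02 and -1.20 without replicate 1, and were 10.9 and 11.7 without replicate 2. Over all peaks, in place of the strongest 2000, they were 13.9 and 10.1. The HY5-SRDX shares of 30.3% and 16.01% then lay above the 7.98% to 10.5% of HY5ox (exact permutation p = 0.1, the smallest possible) but overlapped the 9.46% to 18.6% of HY5-VP16 (exact permutation p = 0.3).

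The shared peaks lay at similar densities on the 5 chromosomes. Chromosomes 1 to 5 held 943, 526, 719, 570 and 833 of them in replicate 1, which is 30.99, 26.8, 30.7, 30.7 and 30.9 per Mb between the outermost peaks. Chromosome 2 was the lowest. The share of annotated genes listed in both libraries was likewise lowest on chromosome 2, with 17.4% against 19.9% to 20.8% on the others and 19.9% over all annotated nuclear genes.

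Around the centromeres the libraries parted. In windows of 5 Mb centred on approximate centromere positions (15, 4, 14, 4 and 12 Mb on chromosomes 1 to 5), replicate 1 had 3734 peaks, 18.2% of its list, and replicate 2 had 673, 5.31%. Of the peaks of replicate 1 in these windows 49.0% were assigned to no gene, and 140 were shared. The shared peaks had 3.90% in these windows in either library, and the unshared peaks had 21.2% in replicate 1 and 5.87% in replicate 2. Within 1 Mb of the window centre the density was 137 peaks per Mb in replicate 1, 11.4 in replicate 2 and 3.00 for shared peaks. At 14 to 15 Mb from it the densities were 213, 165 and 56.2 per Mb. Peaks of replicate 1 in the windows had a median fold of 4.38 over a median of 11 control tags, against 4.77 and 10.3 over all its peaks.

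**Figure D4:**
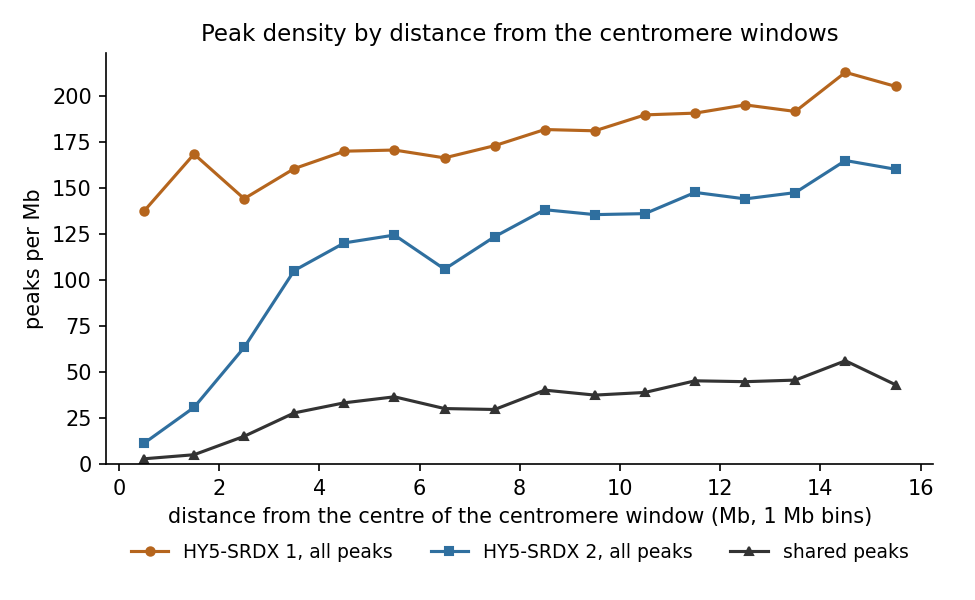
Peaks per Mb (y axis) in bins of 1 Mb by distance from the centre of the centromere window in Mb (x axis), over the 5 chromosomes, for all peaks of replicate 1, all peaks of replicate 2 and shared peaks. Replicate 2 and shared peaks fall to 11.4 and 3.00 per Mb at the centre, whereas replicate 1 keeps 137 per Mb there.

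The other tagged libraries resembled replicate 2 in this. Their share of peaks in the centromere windows was 4.16% ± 0.251 in HY5ox (n = 3) and 3.89% ± 0.496 in HY5-VP16 (n = 3), against a mean of 11.8% ± 9.12 in HY5-SRDX (n = 2). The differences were 7.60 and 7.87 points (exact permutation p = 0.1 each, adjusted p = 0.15). Without replicate 1 they were 1.15 and 1.42 points, and without replicate 2 they were 14.05 and 14.3. Within set 1, HY5ox replicate 1 had 4.39% and HY5-VP16 replicates 1 and 2 had 3.85% and 4.40%. These shares are over all peaks, in lists of 2958 to 20509 peaks, so the length of the lists is not set aside. Among the strongest 1000 peaks the shares were 9.40% and 1.90% in HY5-SRDX replicates 1 and 2. The other libraries were not counted at that setting, so whether list length accounts for the differences was not tested.

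Some of the strongest peaks were called in 1 HY5-SRDX library only. In replicate 1 these were, in order, an unassigned peak at chr1:2754858-2755024 (rank 9, 151 tags against 1 control tag), AT3G43862 (rank 19), the promoter of PYE (POPEYE, AT3G47640), a bHLH regulator of the iron deficiency response (rank 20), COL9 (AT3G07650), a B-box protein (rank 50), and AFP1 (AT1G69260), named as a partner of the abscisic acid factor ABI5 (rank 63). Except for AT3G43862, each lay near a peak of replicate 2, with centres 206, 270, 439 and 226 bp apart. The AT3G43862 peak had 44.7 control tags and a fold of 3.15, and the nearest centre of replicate 2 lay 24269 bp away.

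In replicate 2 the strongest peak of all, at chr4:12686820-12687028, overlapped no peak kept in replicate 1, whose nearest peak centre lay 6520 bp away. It was assigned to the body of DIC2 (AT4G24570), a mitochondrial dicarboxylate carrier, and to the promoter of UBP16 (AT4G24560), a ubiquitin-specific protease. It held 844 tags and also 117.6 control tags, the most under any peak of this library, which is 7.17-fold. The next were in the body of HSPRO2 (AT2G40000; rank 2, 744 tags, 16.4-fold), which the authors also assigned to the promoter of EIF2 (AT2G39990), and in the bodies of AT4G32020 (rank 5, 13.2-fold) and J11 (AT4G36040; rank 7, 12.5-fold), a plastid DnaJ protein. The fifth was in the body of RAP2.4 (AT1G78080; rank 8, 6.88-fold), an AP2/ERF factor. All 5 had their centre 278 to 988 bp downstream of a start site, and their control counts, 42.6 to 117.6 scaled tags, were well above the median of 15.7. The same control library counted against replicate 1, where 3-fold was also required and no kept peak held more than 168 tags. The peak lists therefore cannot tell missing binding in replicate 1 from candidates that the control removed. Over all unshared peaks, 8.33% of those of replicate 1 and 13.8% of those of replicate 2 had a centre of the other library within 500 bp.

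Some shared peaks stood on many control tags. At ABCI21 (AT5G44110), an ABC transporter family gene, the promoter peak had 46.2 and 59.3 control tags and only 3.16-fold and 4.79-fold, although it ranked 15 and 145. Peaks at MAPKKK14 (AT2G30040), a protein kinase, AT5G61590, WRKY57 (AT1G69310), a WRKY factor, and AT1G66180 followed, with 27.9 to 35.2 control tags in replicate 1 and 45.4 to 50 in replicate 2. Their folds ran from 3.04 to 3.59 and from 3.46 to 4.96. All 5 peaks were thus near the 3-fold limit in replicate 1.

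The libraries of sets 2 and 3 were read against other controls, so their peaks do not rest on the set 1 control. The HY5-SRDX peaks in these overlaps still do. Of the shared peaks, 46.8% of those of replicate 1 overlapped a peak of HY5ox replicate 2, 57.8% one of HY5ox replicate 3 and 27.99% one of HY5-VP16 replicate 3, the shortest list. For the unshared peaks of replicate 1 these shares were 2.59%, 4.25% and 1.09%, and for those of replicate 2 they were 25.4%, 35.9% and 10.9%. Over all its peaks replicate 1 overlapped HY5ox replicate 3 with 13.6% of its own list, which was 26.2% of that library's list, and replicate 2 with 42.4% of its own, which was 50.3%. The 3 libraries were compared with HY5-SRDX across sets, and set and construct cannot be told apart in these shares.

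Shared peaks seen in all 3 of those libraries (904 pairs, 25.2%) and in none of them (1310 pairs, 36.5%) differed in place and strength. The values here follow the overlaps of each HY5-SRDX library alone. These gave 911 peaks of the first kind and 1362 of the second in replicate 1, and 928 and 1328 in replicate 2. The first kind was in promoters in 81.6% of cases (78.9% to 83.9%) with a median distance of 259 bp to the start site in replicate 1, and the second in 64.3% (61.7% to 66.8%) with 661 bp. Their median folds were 7.40 and 5.75 in replicate 1 and 11.8 and 6.66 in replicate 2. Of the 10 strongest shared peaks, 9 were present in all 3 libraries and that of GBF3 in 2. The strongest pairs with no overlap there, looked up after the values were seen, included NIC3 (AT5G23220), a nicotinamidase gene, at chr5:7821835-7822001. It ranked 59 and 260 and held 119 tags with no control tag in replicate 1, at least 54.1-fold, and 254 tags in replicate 2.

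At the level of genes the lists overlapped more than the peaks did. Replicate 1 listed 16408 genes and replicate 2 listed 11932, and 7646 were in both, 46.6% and 64.1% of each list. Of these, 3712 (48.5%) had a shared peak, and 3934 had peaks at different places, whose nearest centres lay a median of 975.5 bp apart. The strongest peak of the gene was assigned to the promoter in both libraries for 73.9% of genes with a shared peak and 37.7% of the others. Weaker promoter peaks are not counted in this. Most genes with a shared peak had 1 (3352 genes), 340 had 2, 18 had 3, and TPPG (AT4G22590), a trehalose phosphate phosphatase, and its neighbour AT4G22592 had 4. The background is high. Of the 27444 protein-coding genes, 52.5% were listed in replicate 1, 40.4% in replicate 2, 26.4% in both, and 12.7% in both with a shared peak. Of all 37899 annotated nuclear genes the shares were 42.7%, 31.1%, 19.9% and 9.65%.

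The 15 gene lists used here held 202 genes, of which 135 were listed in replicate 1, 131 in replicate 2, 101 in both and 64 with a shared peak. These counts are descriptions, to be read against the background of 26.4% in both and 12.7% with a shared peak. Members and lists were chosen with earlier results of these data known, so counts and ranks may be partly set by that choice. Members listed in both libraries had a median percentile rank of 21.6 (0 is the strongest) against 42.3 for all genes listed in both. The lists differed in this, and 4 of them had weaker medians than 42.3, with 59.3 for photoreceptors, 58.7 for flavonoid genes, 61.9 for antenna and Rubisco genes and 65.1 for seed and flower genes.

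**Figure D5:**
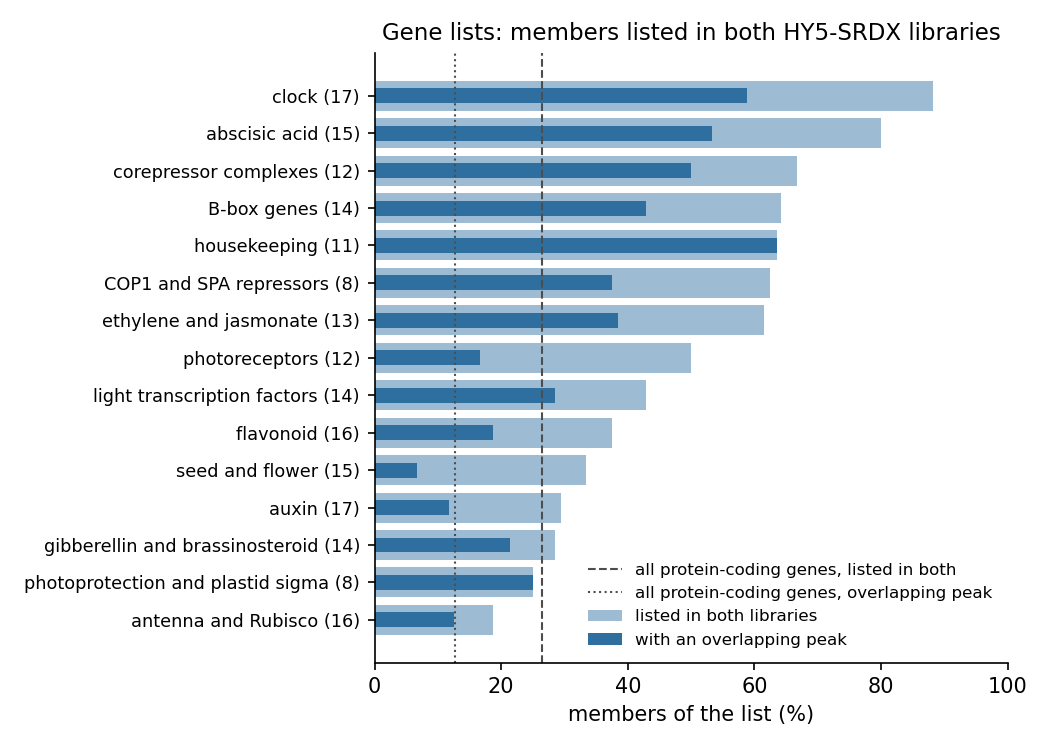
Percent of the members of each gene list (number of members in parentheses) that were listed in both HY5-SRDX libraries (light bars) and that had an overlapping peak in both (dark bars). Dashed and dotted lines mark the same shares over all protein-coding genes, 26.4% and 12.7%. Clock genes have the longest light bar, 88.2%, and the housekeeping genes the longest dark bar, 63.6%.

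By listing in both libraries clock genes stood highest, with 15 of 17 (88.2%). A shared peak was found for 10 (58.8%), below the 63.6% of the housekeeping genes. Besides GI, the peak of PRR9 (AT2G46790), a pseudo-response regulator that represses morning genes, ranked 32 and 119, with 133 and 292 tags against 15.4 and 24.1 control tags. TOC1 (AT5G61380), an evening repressor, had 87 and 235 tags against 23.5 and 42.6 control tags, 3.71-fold and 5.51-fold. LHY (AT1G01060), a MYB-related morning factor, reached 8.73-fold and 14.3-fold. In all of these the peak was in the promoter and shared. ZTL, the blue-light receptor of clock proteins, was in neither list, and PRR3 was in replicate 1 only.

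Of the repressors of light signalling, 5 of 8 were listed in both. SPA1 (AT2G46340), a partner of COP1, had a promoter peak of rank 92 and 77, with 110 and 317 tags against 19.8 and 30.6 control tags. COP1 (AT2G32950), the ubiquitin ligase that targets HY5, had 77 and 150 tags against 22.7 and 28.7 control tags, 3.39-fold and 5.22-fold. SPA3 also had a shared peak, but its strongest peaks, of rank 957 and 2676 with 75 and 133 tags, did not overlap. RUP2, a repressor of the UV-B receptor, was listed in both through gene body peaks of rank 16806 and 4008 and had no shared peak. SPA2 and SPA4 were in neither list.

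Photoreceptor genes were listed in both in 6 of 12 cases and with a shared peak in 2, PHYB and CRY2. PHYB (AT2G18790), the main red-light phytochrome, had 71 and 98 tags against 9.50 and 3.70 control tags, in a peak centred at -1388 bp in replicate 1. CRY2 (AT1G04400), a blue-light cryptochrome, had 45 and 102 tags, 3.83-fold and 15.7-fold. PHYA and PHOT2 were in both lists through peaks at different places. UVR8, the UV-B receptor, and PHOT1, a phototropin, were in neither list.

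Among transcription factors of light signalling, 6 of 14 were listed in both. Next to HY5, HFR1 (AT1G02340), a bHLH protein that restrains PIFs, had a shared peak with 82 and 211 tags against 3.70 and 9.30 control tags, 22.4-fold and 22.8-fold. PIF3 (AT1G09530), a bHLH factor of dark growth, reached 8.30-fold and 13.5-fold, and none of the 3 libraries of sets 2 and 3 listed it. FAR1, which acts in phytochrome A signalling, was listed without a shared peak. PIF5 and PIF7 were in neither list, and HYH, the closest relative of HY5, was listed in replicate 2 only, with a peak of rank 12256.

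B-box genes, many of which encode partners or regulators of HY5, were listed in both in 9 of 14 cases, 6 with a shared peak. BBX28 (AT4G27310), a negative regulator of light responses, had 81 and 360 tags against 10.3 and 13 control tags, 7.89-fold and 27.8-fold. BBX29 reached 25.2-fold and 37.1-fold, BBX22, a promoter of light responses, 11.2-fold and 47.2-fold, and COL3 5.53-fold and 7.26-fold. BBX18 and BBX23 were in neither list.

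Flavonoid genes, the textbook outputs of HY5, were nearer the background, with 6 of 16 in both and 3 with a shared peak. MYB11 (AT3G62610), a regulator of flavonol synthesis, had the strongest, with 67 tags and no control tag in replicate 1, at least 30.4-fold, and 176 tags and 12.7-fold in replicate 2. DFR, an enzyme of anthocyanin synthesis, had 49 and 167 tags in its strongest peaks, which did not overlap. FLS1 and LDOX, enzymes of flavonol and anthocyanin synthesis, were in both lists without a shared peak. CHS, the first enzyme of the pathway, was listed in replicate 2 only (86 tags, 4.89-fold), and CHI, the next enzyme, and MYB111 were in neither list.

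Abscisic acid genes came second to the clock by listing in both, with 12 of 15 (80.0%). Of these 8 had a shared peak (53.3% of the list), a share below those of the clock and the housekeeping genes. PP2CA (AT3G11410), a protein phosphatase that represses the hormone's signalling, ranked 76 and 12, with 114 and 435 tags against 5.90 and 15.7 control tags. ABI1 (AT4G26080), of the same phosphatase family, reached 6.19-fold and 11.6-fold. ABF3 (AT4G34000), a bZIP activator of hormone-responsive genes, had 111 tags against 3 control tags in replicate 1, 50.4-fold with an exact interval of 16.8 to 248, and 45.3-fold in replicate 2. HAB2, another phosphatase, was in both lists with peaks that did not overlap. ABI3, a seed factor, was in neither list.

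Ethylene and jasmonate genes were in both lists in 8 of 13 cases, 5 with a shared peak. JAZ3 (AT3G17860), a repressor of jasmonate responses, had a shared promoter peak of 97 and 191 tags, 5.75-fold and 7.64-fold. ERF4, a repressor with an EAR motif of its own, MYC2, the main jasmonate bHLH factor, and JAZ1 had their strongest peak in the promoter in replicate 1 and in the gene body in replicate 2. At JAZ1 the gene body peak of replicate 2 ranked 15 with 406 tags and 99.1 control tags. ACS8, an enzyme of ethylene synthesis, was in neither list.

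Growth hormones were closer to the background. Of the auxin genes 5 of 17 were in both lists and 2 had a shared peak. IAA2 (AT3G23030), an auxin response repressor, had 70 and 276 tags, 9.54-fold and 19.9-fold, and TIR1 (AT3G62980), an auxin receptor, 5.09-fold and 8.06-fold. PIN7 and IAA19 were listed without a shared peak, and IAA1 and IAA29 in neither library. Of the gibberellin and brassinosteroid genes 4 of 14 were in both, and GID1B, BRI1 and BES1 had a shared peak. GID1B (AT3G63010), a gibberellin receptor, had 89 and 219 tags in strongest peaks that did not overlap, while BRI1, the brassinosteroid receptor, reached 4.69-fold and 6.48-fold and BES1, a factor downstream of it, 4.92-fold and 6.0-fold. RGA, a DELLA repressor, was listed without a shared peak, and GA3OX1, an enzyme of gibberellin synthesis, in neither.

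The corepressor genes, whose products act with EAR motifs, were listed in both in 8 of 12 cases and had a shared peak in 6. TPL (TOPLESS, AT1G15750) had a promoter peak of rank 436 and 186, with 85 and 270 tags, 5.79-fold and 10.8-fold. TPR3 (AT5G27030) reached 13.6-fold and 27.3-fold, and the strongest peaks of TPR1 (AT1G80490), at 5.37-fold and 24.1-fold, did not overlap. Beside TPR2, described above, 4 members of the TOPLESS family were therefore in both lists. Of the histone deacetylase genes, HDA19 was in both lists, at 3.06-fold and 5.40-fold but with no shared peak, and HDA6 and HDA9 were in neither. Of the 8 listed in both, TPL and TPR2 were also listed in all 3 libraries of sets 2 and 3.

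Photoprotection genes were listed in both in 2 of 8 cases, SIG5 and UVR3, each with a shared peak. SIG5 (AT5G24120), a plastid sigma factor, had a promoter peak of rank 22 and 52, with 138 and 348 tags against 12.5 and 16.7 control tags. UVR3, a photolyase, reached 5.71-fold and 16.1-fold, and ELIP2, an early light-induced protein, was in neither list. Of the antenna and Rubisco genes 3 of 16 were in both (18.8%), below that background, and 2 had a shared peak (12.5%), close to it. LHCB4.1 (AT5G01530), a minor antenna protein of photosystem II, reached 3.84-fold and 7.94-fold, RBCS1A, a small subunit of Rubisco, 12.3-fold and 11.6-fold, and LHCA1 was listed without a shared peak. RBCS1B and RBCS2B were in neither list.

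Housekeeping genes and genes of seeds and flowers, chosen for having no known tie to HY5 in seedlings, were counted in the same way. Of 11 housekeeping genes 7 were in both lists, and all 7 had a shared peak (63.6%), the highest such share of the 15 lists. UBQ10 (AT4G05320), a ubiquitin gene, had 82 and 348 tags in its strongest peaks, against 23.5 and 84.3 control tags. The strongest peaks of UBQ11 had 3.15-fold and 4.40-fold. For both ubiquitin genes these strongest peaks did not overlap, with a promoter peak in replicate 1 and a gene body peak in replicate 2. ACT2, an actin gene, reached 4.45-fold and 8.92-fold and GAPC1, an enzyme of glycolysis, 7.50-fold and 19.04-fold. EF1A was in neither list. Of 15 seed and flower genes 5 were in both but 1 had a shared peak. CRC, AP3 and SEP3, flower development genes, and CRA1, a seed storage protein gene, had no shared peak. AP3 had 61 tags in replicate 1, a percentile rank of 18.1, and 60 tags in replicate 2, a percentile rank of 94.9. The percentile ranks were 33.5 and 66.3 for CRC, 35.4 and 94.8 for SEP3 and 78.4 and 64.7 for CRA1. CRU3 and LEC1 were in neither list.

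Gene families were counted over all members that the reference symbols name. The background over protein-coding genes was 26.4% in both libraries and 12.7% with a shared peak. CBL-interacting kinases, ATL ring finger proteins (9 of 14, 64.3%) and WRKY factors had the highest shares in both libraries. Of 26 CBL-interacting kinases, which act in calcium signalling, 19 were in both (73.1%) and 14 had a shared peak, with CIPK15 (AT5G01810) and CIPK18 (AT1G29230) the strongest. WRKY factors had 45 of 71 (63.4%) and 27 with a shared peak, DREB and CBF cold factors 6 of 10 and 3, and heat shock factors 10 of 20 and 9. MYB factors, with 38 of 125 (30.4%), and NAC factors, with 34 of 99 (34.3%), were nearer the background of 26.4%. Below it were response regulators of cytokinin with 4 of 24 (16.7%), XTH cell wall enzymes with 5 of 33 (15.2%) and AGAMOUS-like factors with 17 of 99 (17.2%). Among 326 miRNA genes 21 were in both (6.44%), led by MIR163 (AT1G66725), against 19.9% of all annotated nuclear genes.

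Pseudogenes showed the difference between the libraries again. Of 3917 pseudogenes 27.8% were listed in replicate 1 and 5.999% in replicate 2, and 2.32% in both. For 625 tRNA genes the shares were 23.7%, 19.5% and 8.32%, and for 3480 long noncoding RNA genes 3.48%, 2.82% and 1.67%. Protein-coding genes, with 52.5% and 40.4%, differed far less between the libraries in proportion than pseudogenes did.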

How the data were processed

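The submitters' processing notes name TAIR10 as the build and the tools HOMER (4.9.1), Bowtie2 (2.3.0) and CASAVA (1.8.2). Per the file headers, the authors ran findPeaks (style factor) on single libraries with an FDR threshold of 0.001. A peak needed 3-fold over the control of its set with a Poisson p of 0.0001 and 2-fold over the surrounding 10000 bp with a p of 0.001. The deposited p-value columns hold these Poisson tests, computed by the authors' caller. The deposited tag count of a peak is a read count. The deposited signal is that count scaled to 10 M tags, here called the normalised tag count, and the control tags are a signal that the authors scaled to the library. The deposited fold is the ratio of tags to control tags, and the score, as deposited, comes from the caller without a unit. All are the authors' values. Between the 2 HY5-SRDX lists they were compared without adjustment for peak width. Peaks are 167 bp wide in replicate 1 and 209 bp in replicate 2. The authors assigned peaks to promoters of 2000 bp or gene bodies, and no source used here names the annotation.

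Peaks were ranked by normalised tag count, ties by score. Peaks with both kinds of assignment went to the promoter class. Names and gene types came from a RefSeq table (TAIR10.1), and its coordinates were left aside. Of the genes listed in both libraries 7553 matched it, and all 202 list members did. Shares have Wilson intervals (95%), and folds over 1 to 3 control tags have exact Clopper-Pearson intervals. The library was the unit of the 6 tests, which were exact and two-sided. Overlap counting and the permutation test were checked on simulated data. The members, gene lists and families were chosen with earlier results of these data known. The genes named are those of the 10 shared peaks with the best mean percentile rank, up to 4 members of each list in both libraries and up to 2 in neither, HY5, the 5 strongest unshared peaks of each library, the 5 shared peaks with the most control tags, and up to 2 members of a family. HYH, CHS, PRR3 and HDA19 are named outside these rules. Others named are said to be added after their values were seen, or complete a count. No genome was used, so no sequence is shown. Software was Python 3.11.15 with matplotlib 3.10.9, scipy 1.17.1, pandas 2.3.3 and numpy 2.4.6.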

Additional observations from a re-analysis of the deposited data

How the results depend on the processing

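The share of shared peaks depended on the definition. It was 17.5% in replicate 1 and 28.3% in replicate 2. With an overlap of at least 50% of both peaks it was 11.6% and 18.8%, and with centres within 50 bp 7.86% and 12.7%. With peaks of at least 5-fold over the control in both lists it was 22.4% and 27.5%, and with the strongest 5000 peaks of each list 26.7% in both. The number of genes in both lists, 7646, became 3712 when a shared peak was required and 3702 when a peak of at least 5-fold was required in each library. A single library lists 11932 to 16408 genes. The promoter share of shared peaks, 74.0% by the peaks of replicate 2, was 50.8% when peaks also in a gene body were not counted, 52.8% with centres within 1000 bp upstream and 76.3% at 5-fold. Over all peaks of 1 library it was 51.3% to 71.0%. The values of 1 library, and the promoter share at the positions of replicate 1, were added after the data were seen. Of the position differences, those of gene body peaks reversed to -2.02 (HY5ox) and -1.20 (HY5-VP16) without HY5-SRDX replicate 1. Leaving out 1 library at a time, the gene body differences ran from -2.02 to 10.9 and from -1.20 to 11.7. The promoter differences ran from -21.2 to -6.08 and from -19.1 to -3.90, and the centromere differences from 1.15 to 14.05 and from 1.42 to 14.3. No permutation p could fall below 0.1, so none of these passed or failed by a setting. With the replicate block, the promoter differences were -14.4 and -11.6, the gene body differences 5.25 and 6.55 and the centromere differences 7.62 and 7.63. The labels do not say that replicate numbers pair the samples, and HY5ox replicate 2 is of set 2 while HY5-SRDX replicate 2 is of set 1. The correlation of same-numbered deviations in gene listing was -0.0590 for HY5ox and -0.0288 for HY5-VP16. With 2 HY5-SRDX libraries this correlation cannot decide whether samples were paired. The depth of 1 control library limits every fold, and peaks with few control tags have wide intervals.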
